A study of Homo sapiens with 4 samples.

Results

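Interferon-stimulated antiviral genes were followed in CAL-27, a human cell line from a squamous cell carcinoma of the tongue, in its parental form and after selection for resistance to cisplatin, a platinum compound that crosslinks DNA. The members were 41 genes listed by symbol, with the MHC genes left out, and a row of the array counted as a member where its platform gene symbol or current synonym was on that list. Of these, 40 were measured, by 50 of the 42152 rows and as 40 of the 15073 named genes. The remaining member, DDX58 (current symbol RIGI), a sensor of viral RNA, was not analysed here. Parental cells were compared with a resistant derivative that, per the labels, had been grown in cisplatin raised stepwise from 1e-07 M to 1e-05 M. RNA of either form was hybridised to 2 arrays, which the series calls biological replicates; beyond that nothing says they came from separate cultures, so p-values measure only the spread between these arrays. Both forms were kept in the same serum-supplemented medium. The resistant cells are a selected population of a single line, and the labels do not say whether drug was present at harvest.

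Interferons are secreted when cells sense viral nucleic acid or misplaced DNA of their own. Type I and type III interferons act through their receptors and the kinases JAK1 and TYK2 on a complex of transcription factors that includes STAT2 and IRF9 and binds the interferon-stimulated response element in the promoters of target genes. Interferon gamma acts through a receptor of its own. The targets include sensors of viral RNA, enzymes that degrade it, proteins that block viral entry or translation, and the ubiquitin-like protein ISG15 with its enzymes. Some of them are known to be expressed without infection in tumour cells, including tumour cells that resist DNA-damaging treatment.

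Signals are given as log2 of the deposited normalized intensity, in which a difference of 1 is a 2-fold change, and differences are resistant minus parental with limma's standard error (SE) from 2 arrays per group. "Rose" and "fell" are used only of genes whose adjusted p was under 0.05 over all 15073 genes with a constant prior variance. A second estimate, in which the prior variance follows intensity, is called the intensity prior. It is given beside the first because dim genes scattered more than bright ones: among genes with a mean under 6 the 2 parental arrays differed with an SD of 1.15, and among genes with a mean of 12 or more with an SD of 0.26. A signal belongs to its own probes, so the levels of different genes are not compared. Median intensities ran from 141 to 149.9 over the arrays; with 4 in all, precision is limited by their number.

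Most antiviral genes read somewhat higher in the resistant cells, but few passed the test over all genes. MX2 and GBP1, which encode GTPases that restrict viruses and intracellular microbes, rose 3.88-fold and 2.46-fold. Of the 40 members, 2 rose, 0 fell and 38 did not pass, so that 5% were called, where 6.10% of all genes were called, 3.26% of them as higher and 2.83% as lower. With the intensity prior 18 members were higher and 1 was lower, which is 45% and 2.5% of them, where 9.93% and 11.5% of all genes were called. Of the 40 members 20 had a mean of 12 or more, as did 1483 of the 15073 genes. Bright genes scattered less between replicates, so these shares, and those of separated groups below, are not compared like for like. At an unadjusted p under 0.05, 18 members were higher and 0 lower, where 13.8% and 14.4% of all genes were.

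The difference was above 0 for 34 members and below 0 for 6, while it was above 0 for 48.3% of all genes. The median difference of the members was 0.41, with quartiles of 0.21 and 0.78, beside a median of -0.03 for all genes. Both resistant arrays lay above both parental arrays for 28 members and below for 4, where 27.9% and 31.0% of all genes did so. In 28 members the difference was larger than the gap between either pair of replicates, as it was for 48.1% of all genes. Few of the shifts were large: 6 members lay at least 2-fold higher and 0 at least 2-fold lower, where 10.8% and 9.10% of all genes did. Between replicates the median shift of the members was 0.08 from parental replicate 1 to 2 and 0.07 from resistant replicate 1 to 2. For the 4 pairings of a resistant with a parental array it lay between 0.30 and 0.60. Members also leaned to the same side between replicates, with 26 higher and 14 lower in replicate 2 of either group. Of all genes 57.5% were higher in parental and 50.8% in resistant replicate 2.

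**Figure D1:**
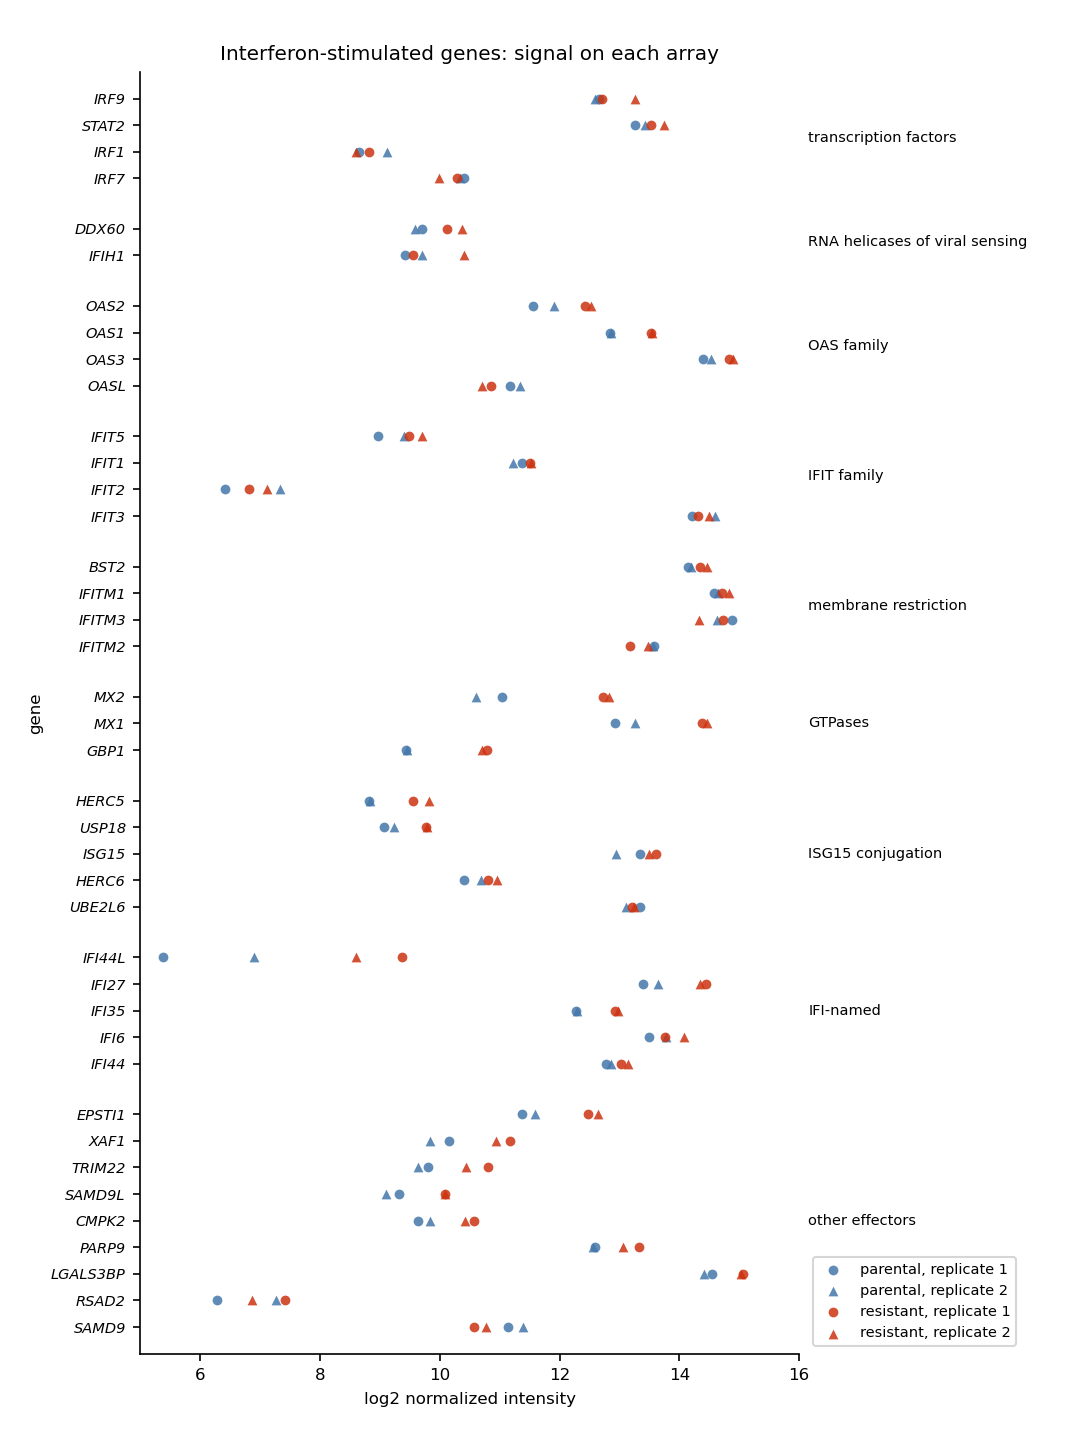
Signal of the 40 measured antiviral genes on each of the 4 arrays, as log2 normalized intensity on the horizontal axis, with genes in rows by role. Blue marks are parental and red marks resistant arrays, circles replicate 1 and triangles replicate 2; both red marks lie to the right of both blue marks for 28 genes and to the left for 4.

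As a check of the labelled cell type, 6 marker genes of squamous cells summed to between 181740 and 186648 intensity units in parental and between 64775 and 67346 in resistant arrays. The keratin genes KRT5 and KRT17 read 14.28 or more on every array, while KRT14, KRT6A, TP63 and DSG3 fell. KRT5 differed by -0.44 and KRT17 by -0.79, with both resistant arrays below both parental ones. Neither passed with the constant prior, and the intensity prior called KRT17 lower (0.014) but not KRT5 (0.066). None of 8 measured leukocyte markers passed with the constant prior, and 1 was higher with the intensity prior. They summed to 4464 and 4975 in parental and to 4656 and 5000 in resistant arrays, and PTPRC, the defining surface marker of leukocytes, read between 4.35 and 6.03, under the lower quartile of genes on every array. LCP1, an actin-bundling protein of leukocytes that carcinoma cells can also express, differed by 1.27 ± 0.22 (adjusted p = 0.0580; intensity prior 0.0029), and CD53, a leukocyte tetraspanin, by 1.23 ± 0.64 (adjusted p = 0.302; intensity prior 0.24); in both the resistant arrays lay above the parental ones. Of 5 fibroblast markers (331 to 375 in parental, 1696 to 2020 in resistant arrays) COL1A1 rose, while COL1A2, COL3A1 and DCN read under 6 throughout. Of 4 endothelial markers (144 to 167 in parental, 704 to 884 in resistant arrays) CDH5 rose, by 5.02. The others passed under neither prior: VWF differed by 0.76, PECAM1 by 0.39 with overlapping groups, and KDR by -0.61. The part of these shifts in the values below was not tested, and in bulk RNA a larger share of expressing cells and more RNA per cell cannot be told apart.

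The promoters of the members were searched for the interferon-stimulated response element. The members were listed as known targets of interferon, so a high share of matches follows in part from the choice of genes. RefSeq promoter windows (GRCh38.p14, 250 bases before to 50 after an annotated start) were matched for 32 of the 40 measured members; IFITM2, IFIT2, IRF7, OASL, MX2, USP18, TRIM22 and OAS2 had no entry. The core of the response element was searched as GAAANNGAAA on both strands, so that TTTCNNTTTC was its other strand, with overlapping matches counted. It was found in at least 1 window of 22 of the 32 members, or 68.8%, and in 4.18% of the 11797 genes measured on the arrays that had a window. Some genes had several windows; by window the shares were 60.5% of 43 and 3.15% of 16683. A match describes the letters and does not show that a factor binds. Only exact matches were counted, so a window without one may still hold a variant of the element. Members with a core had a median difference of 0.41 (n = 22) and those without 0.52 (n = 10), with 9 and 5 called higher by the intensity prior.

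The 200 bases before the annotated start are shown for GBP1, IFI44L and EPSTI1, all higher with the intensity prior, of which only GBP1 rose. They are also shown for ISG15 and IFIT1, which carry the core and passed under neither prior. The others are the neighbouring relatives SAMD9 and SAMD9L, called lower and higher by the intensity prior only. Letters in capitals mark the core. The stretches are chr1:89065209-89065408 on the minus strand for GBP1, chr1:78620248-78620447 on the plus strand for IFI44L, chr13:42992242-42992441 on the minus strand for EPSTI1, and chr1:1013297-1013496 on the plus strand for ISG15. For IFIT1 the stretch is chr10:89392423-89392622 on the plus strand, for SAMD9 chr7:93117980-93118179 and for SAMD9L chr7:93148386-93148585, both on the minus strand. The stretch of ISG15 holds 2 overlapping cores, those of IFI44L and IFIT1 2 separate cores each, and that of SAMD9L none.
GBP1: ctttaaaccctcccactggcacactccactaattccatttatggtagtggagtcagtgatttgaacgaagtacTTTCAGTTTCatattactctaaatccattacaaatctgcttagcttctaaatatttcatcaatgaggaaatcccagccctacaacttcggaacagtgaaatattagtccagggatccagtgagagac
IFI44L: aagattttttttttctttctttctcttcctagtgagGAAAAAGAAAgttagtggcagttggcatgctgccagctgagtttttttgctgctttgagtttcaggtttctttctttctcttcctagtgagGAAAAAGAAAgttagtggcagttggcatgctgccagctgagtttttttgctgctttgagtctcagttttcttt
EPSTI1: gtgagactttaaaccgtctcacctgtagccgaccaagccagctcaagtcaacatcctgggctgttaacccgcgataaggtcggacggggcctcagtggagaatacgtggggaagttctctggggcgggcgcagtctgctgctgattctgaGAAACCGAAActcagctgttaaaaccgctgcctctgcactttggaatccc
ISG15: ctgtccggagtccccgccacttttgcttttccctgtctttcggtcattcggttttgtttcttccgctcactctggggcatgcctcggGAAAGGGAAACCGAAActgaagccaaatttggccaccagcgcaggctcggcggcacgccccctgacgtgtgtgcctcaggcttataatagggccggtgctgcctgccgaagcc
IFIT1: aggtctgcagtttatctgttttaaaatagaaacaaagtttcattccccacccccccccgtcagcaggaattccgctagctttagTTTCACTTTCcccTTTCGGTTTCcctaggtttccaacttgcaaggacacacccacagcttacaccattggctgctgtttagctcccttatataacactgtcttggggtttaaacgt
SAMD9: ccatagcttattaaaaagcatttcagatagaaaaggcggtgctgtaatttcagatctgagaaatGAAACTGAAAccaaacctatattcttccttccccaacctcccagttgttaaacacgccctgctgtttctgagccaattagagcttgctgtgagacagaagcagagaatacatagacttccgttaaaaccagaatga
SAMD9L: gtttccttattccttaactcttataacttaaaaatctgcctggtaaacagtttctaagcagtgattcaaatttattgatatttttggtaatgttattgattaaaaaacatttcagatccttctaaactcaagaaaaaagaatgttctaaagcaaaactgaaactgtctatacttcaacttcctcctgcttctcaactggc

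The 3 GTPases were the role group in which every member was called by the intensity prior, and in each the 2 resistant arrays lay clearly above the 2 parental ones. MX2, a GTPase that acts at the nuclear pore against retroviruses and herpesviruses, read 11.03 and 10.60 in parental replicates 1 and 2 and 12.73 and 12.82 in resistant replicates 1 and 2. It rose by 1.96 ± 0.24 (SE, with n = 2 in each group and limma's adjusted p = 0.0358; intensity prior 1.2e-04). GBP1, a guanylate-binding protein induced strongly by interferon gamma, whose promoter holds a single core, read on the other strand, read 9.43 and 9.45 in parental and 10.78 and 10.70 in resistant arrays. It rose by 1.30 ± 0.18 (adjusted p = 0.0427; intensity prior 8.3e-04), and its replicates lay close together in both groups. MX1, which blocks influenza and other RNA viruses, read 12.92 and 13.26 in parental and 14.38 and 14.47 in resistant arrays. Its difference of 1.33 ± 0.22 is 2.52-fold and just missed the threshold (adjusted p = 0.0538), while the intensity prior called it (5.1e-04). A second row of MX1 gave 1.42, with all resistant values again above the parental ones. Without any 1 of the 4 arrays, a fit with a single residual degree of freedom, the constant prior called neither MX2 nor GBP1.

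None of the 4 transcription factors passed under either prior. STAT2, which brings the activating domain to the complex, read 13.26 and 13.43 in parental and 13.53 and 13.74 in resistant arrays, a difference of 0.29 ± 0.20 (adjusted p = 0.422, 95% interval -0.27 to 0.85). IRF9, which gives the complex its DNA specificity, read 12.65 and 12.59 in parental and 12.71 and 13.27 in resistant arrays. Its difference of 0.37 ± 0.27 (adjusted p = 0.437) came mostly from resistant replicate 2 and was 0.09 without that array. IRF7, the regulator that amplifies interferon alpha production, lay the other way, at 10.40 and 10.34 in parental and 10.28 and 9.98 in resistant arrays. Its difference was -0.24 ± 0.21 (adjusted p = 0.510), and -0.31 in its other row. IRF1, which drives interferon gamma responses, differed by -0.18 ± 0.26 with overlapping groups.

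Both measured RNA helicases read higher on average in the resistant cells, and the groups separated for 1 of them. DDX60, which is known to aid sensing of viral RNA, read 9.70 and 9.58 in parental and 10.13 and 10.37 in resistant arrays. The difference was 0.61 ± 0.20 (adjusted p = 0.157; intensity prior 0.041). IFIH1, the sensor MDA5 of long double-stranded RNA, read 9.42 and 9.71 in parental and 9.55 and 10.40 in resistant arrays. Here the groups overlapped, and the difference of 0.41 ± 0.37 (adjusted p = 0.530) turned to -0.019 without resistant replicate 2.

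The OAS genes encode synthases of 2′-5′ oligoadenylate, a messenger of the antiviral response, except that OASL lacks this activity and modulates RNA sensing. OAS1, OAS2 and OAS3 lay higher and OASL lower in the resistant cells, with separated groups for all 4 and 0 past the main test. OAS1 read 12.84 and 12.86 in parental and 13.53 and 13.55 in resistant arrays, a difference of 0.69 ± 0.18 (adjusted p = 0.107; intensity prior 0.0049). OAS2 read 11.55 and 11.91 in parental and 12.42 and 12.52 in resistant arrays, a difference of 0.74 ± 0.22 (adjusted p = 0.134; intensity prior 0.010). OAS3, the largest of the synthases, read 14.39 and 14.53 in parental and 14.82 and 14.90 in resistant arrays, a difference of 0.40 ± 0.18 (adjusted p = 0.254; intensity prior 0.068). OASL read 11.16 and 11.34 in parental and 10.85 and 10.70 in resistant arrays, a difference of -0.47 ± 0.19 (adjusted p = 0.219; intensity prior 0.053).

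Of the members, 7 were measured by more than 1 row, each with its own RefSeq transcript accession on the platform. OAS1 had a second row with a difference of 0.72 and a dimmer row 3 with overlapping groups and -0.04. The 3 rows of OAS2 gave 0.74, 0.30 and 0.97, and the resistant arrays lay above the parental ones in each. IFI6, a stabiliser of mitochondria and blocker of flavivirus replication, differed by 0.29 in the row used, where the groups overlapped, and by 0.53 in both other rows, where they did not. The rows of EPSTI1 gave 1.08 and 1.12, and those of UBE2L6 0.01 and -0.08. Over all 42152 rows without collapsing to genes, limma with the constant prior called 0 (smallest adjusted p = 0.0606); with the intensity prior, where 4.92% of rows were higher and 4.48% lower, 14 members had a higher row and 0 a lower one.

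**Figure D2:**
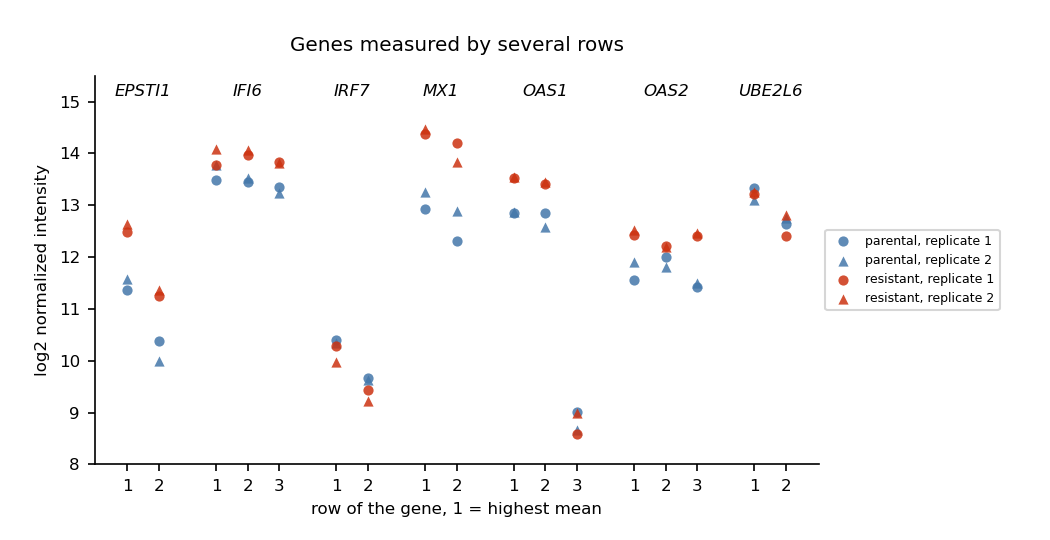
Signal of the 7 members that had several rows, as log2 normalized intensity on the vertical axis, with the rows of each gene numbered from the highest mean. Blue marks are parental and red marks resistant arrays, circles replicate 1 and triangles replicate 2; red lies above blue in both rows of EPSTI1 and MX1 and in all 3 of OAS2, while the third row of OAS1 shows no separation.

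The IFIT genes encode proteins that bind viral RNA and block its translation, and are among the most inducible targets of type I interferon. None of the 4 passed under either prior, and their differences ran from 0.00 to 0.41. IFIT1, which recognises RNA caps lacking a methyl group and whose promoter shows 2 cores, read 11.37 and 11.21 in parental and 11.51 and 11.52 in resistant arrays. The difference was 0.22 ± 0.18 (adjusted p = 0.496, 95% interval -0.29 to 0.74). IFIT3, its binding partner, read 14.22 and 14.60 in parental and 14.32 and 14.50 in resistant arrays, a difference of 0.00 with an interval of -0.65 to 0.65. IFIT5 read 8.96 and 9.40 in parental and 9.48 and 9.71 in resistant arrays, a difference of 0.41 ± 0.25 (adjusted p = 0.366), with resistant replicate 1 barely above parental replicate 2. IFIT2 was dim, at 6.40 and 7.32 in parental and 6.81 and 7.11 in resistant arrays, so that its 0.10 ± 0.39 (adjusted p = 0.895) has the widest interval of the family, -0.99 to 1.18.

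The membrane proteins that restrict virus entry and release did not pass the test either. IFITM1, which blocks entry at the cell surface, read 14.57 and 14.64 in parental and 14.72 and 14.83 in resistant arrays, a difference of 0.17 ± 0.18 (adjusted p = 0.603). IFITM2 read 13.57 and 13.56 in parental and 13.18 and 13.47 in resistant arrays, a difference of -0.24 ± 0.20 (adjusted p = 0.508). IFITM3, which acts in late endosomes, read 14.88 and 14.62 in parental and 14.73 and 14.33 in resistant arrays, a difference of -0.22 ± 0.24 (adjusted p = 0.609). The groups overlapped for IFITM3 and lay close together for the other two. The IFITM genes are relatives whose probes may share signal, so their separate values are less certain. The IFITM sequences were not compared here. BST2, the tetherin that holds budding virus at the cell, read 14.14 and 14.19 in parental and 14.34 and 14.46 in resistant arrays, a difference of 0.24 ± 0.18 (adjusted p = 0.465). The upper ends of their intervals lay at 0.74 for BST2, 0.68 for IFITM1, 0.46 for IFITM3 and 0.33 for IFITM2, all under a 2-fold rise.

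ISG15 is attached to proteins by the conjugating enzyme UBE2L6 and the ligase HERC5, and removed by USP18, which also damps the interferon receptor. Of these 5 genes 0 passed the main test and all 5 differences were above 0. HERC5 read 8.81 and 8.84 in parental and 9.55 and 9.82 in resistant arrays, a difference of 0.86 ± 0.20 (adjusted p = 0.0922; intensity prior 0.019). USP18 read 9.07 and 9.23 in parental and 9.77 and 9.79 in resistant arrays, a difference of 0.63 ± 0.18 (adjusted p = 0.130; intensity prior 0.046). In both the resistant arrays stood apart from the parental ones by more than the replicates did from each other. ISG15 itself, whose promoter holds the overlapping cores shown above, differed by 0.41 ± 0.23 (adjusted p = 0.330), HERC6, a relative of HERC5, by 0.35 ± 0.21 (adjusted p = 0.364) and UBE2L6 by 0.01 ± 0.19 (adjusted p = 0.974). For ISG15 the lower resistant array, at 13.49, lay only slightly above the higher parental one, at 13.33.

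Among the genes named for their induction by interferon, IFI44L had the largest difference of all members and also the largest scatter. It read 5.37 and 6.89 in parental and 9.37 and 8.60 in resistant arrays, the lower resistant value lying well above the higher parental one. The difference of 2.85 ± 0.63 is nominally 7.22-fold, with a 95% interval of 1.08 to 4.63 (adjusted p = 0.0862; intensity prior 0.0072). The parental signal was dim, and the difference ran from 2.09 to 3.61 when single arrays were left out. Its promoter carries 2 identical cores within a repeated stretch. IFI44, its relative and neighbour, differed by 0.27 ± 0.18 (adjusted p = 0.412). IFI27, a mitochondrial protein widely used as a marker of interferon exposure, read 13.40 and 13.65 in parental and 14.45 and 14.35 in resistant arrays, a difference of 0.87 ± 0.20 (adjusted p = 0.0901; intensity prior 0.0032). IFI35, a regulator of innate signalling, differed by 0.67 ± 0.18 (adjusted p = 0.112; intensity prior 0.0057).

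The remaining 9 effectors held the most members called by the intensity prior, 7 higher and 1 lower, while 0 passed the main test. EPSTI1, a stromal-interaction gene induced by interferon, read 11.37 and 11.58 in parental and 12.48 and 12.64 in resistant arrays, a difference of 1.08 ± 0.20 (adjusted p = 0.0657; intensity prior 0.0011). XAF1, which promotes apoptosis by opposing the inhibitor XIAP, read 10.16 and 9.84 in parental and 11.16 and 10.94 in resistant arrays, a difference of 1.05 ± 0.22 (adjusted p = 0.0801; intensity prior 0.0037). In both genes the groups lay about 2-fold apart with little spread within a group. LGALS3BP, a secreted glycoprotein, read 14.54 and 14.41 in parental and 15.06 and 15.03 in resistant arrays, a difference of 0.57 ± 0.18 (adjusted p = 0.151; intensity prior 0.018). Such bright spots can be close to saturation, which would shrink a difference. The antiviral ligase gene TRIM22 differed by 0.90 ± 0.23 (adjusted p = 0.108), the nucleotide kinase gene CMPK2 by 0.76 ± 0.20 (adjusted p = 0.112) and PARP9, an ADP-ribosyltransferase that works with DTX3L, by 0.62 ± 0.20 (adjusted p = 0.155). All of these were higher with the intensity prior (0.010, 0.015 and 0.015). RSAD2, the antiviral enzyme viperin, was dim, at 6.27 and 7.27 in parental and 7.42 and 6.86 in resistant arrays, with overlapping groups and a difference of 0.37 ± 0.44 (adjusted p = 0.640).

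SAMD9 and SAMD9L, neighbouring relatives that restrict poxviruses and slow translation, lay on opposite sides. SAMD9 read 11.13 and 11.39 in parental and 10.57 and 10.78 in resistant arrays, a difference of -0.59 ± 0.21 (adjusted p = 0.180; intensity prior 0.031), and was the single member called lower by that prior. SAMD9L read 9.31 and 9.10 in parental and 10.09 and 10.09 in resistant arrays, a difference of 0.88 ± 0.19 (adjusted p = 0.0823; intensity prior 0.010). Of the 2 promoters shown, that of SAMD9 holds the exact core and that of SAMD9L does not. The stretch of SAMD9L holds aaaactgaaa, which differs from the core in a single letter. The difference between the 2 genes' responses was not tested.

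**Figure D3:**
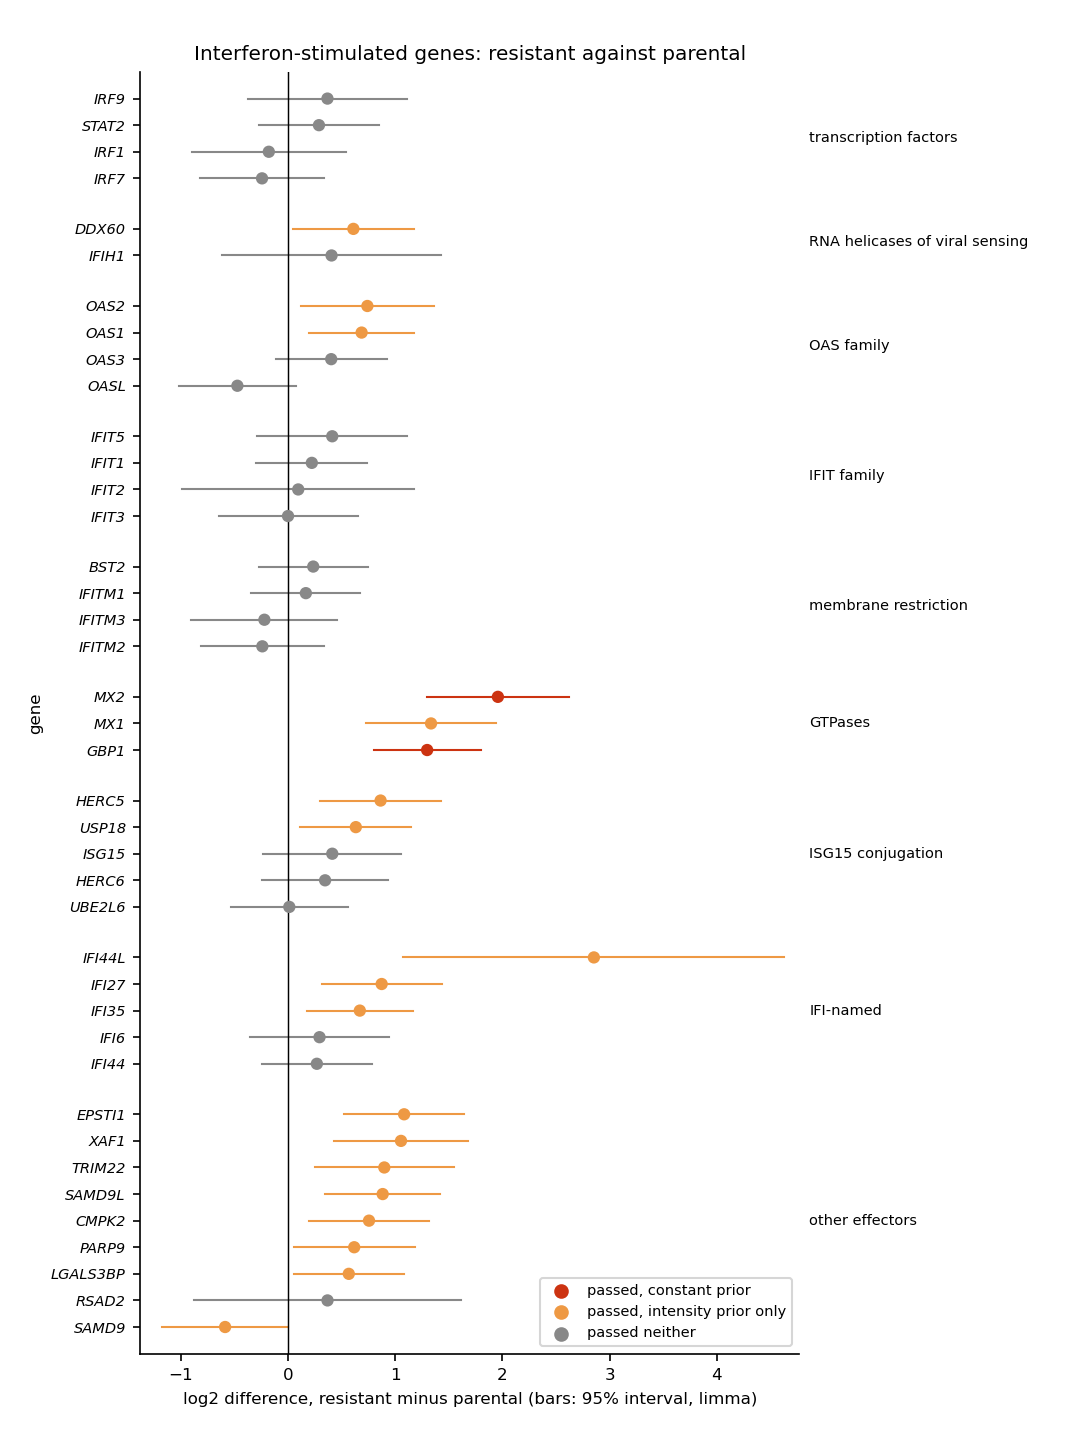
Difference of each antiviral gene on the log2 scale, resistant minus parental, with the 95% interval of limma's test with a constant prior as a bar and genes in rows by role. Red genes passed that test (MX2 and GBP1), orange genes passed with the intensity prior only, and grey genes passed neither; most points lie right of 0, the IFIT, membrane and transcription factor groups close to it.

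The same fit was read for 100 further genes of the interferon pathway, of which 80 were measured. Their median difference was 0.24; 7 rose, 2 fell and 71 did not pass, where 3.26% of all genes rose and 2.83% fell. With the intensity prior 24 were higher and 8 lower, where 9.93% and 11.5% of all genes were, so that the share of lower genes lay near that of all genes. Of 14 measured interferon genes, the ligands of the pathway, 0 rose and 1 fell, and their signals lay between 3.83 and 7.88, below the median gene of every array. IFNB1, which encodes interferon beta, read 5.75 and 4.88 in parental and 6.11 and 5.66 in resistant arrays, a difference of 0.57 ± 0.39 (adjusted p = 0.415). IFNL3, an interferon lambda gene, differed by 0.64 ± 0.32 (adjusted p = 0.286). The gene that fell, IFNA4, differed by -1.56 ± 0.18 (adjusted p = 0.0323), but at signals of 5.96 and 5.94 against 4.42 and 4.36 it was dim and not called with the intensity prior (0.10). At such signals a small amount of ligand RNA would not be detectable, and interferon genes of 1 family may share probe signal.

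Among 6 receptor genes, IFNGR1, the ligand-binding chain of the interferon gamma receptor, fell. It read 10.73 and 10.74 in parental and 9.58 and 9.56 in resistant arrays, a difference of -1.17 ± 0.18 (adjusted p = 0.0490; intensity prior 0.0013). The type I receptor genes did not pass: IFNAR1 differed by 0.53 ± 0.25 (adjusted p = 0.265) and IFNAR2 by -0.30 ± 0.22 (adjusted p = 0.449), and the lambda receptor gene IFNLR1 differed by -0.53 ± 0.25 (adjusted p = 0.272). Of the kinases, JAK1 differed by 0.46 ± 0.22 (adjusted p = 0.271) and TYK2 by 0.24 ± 0.18 (adjusted p = 0.440).

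Of 14 sensors and adaptors, ZBP1 rose, 0 fell and 13 did not pass. The intensity prior called 4 higher and 2 lower, where 9.93% and 11.5% of all genes were. ZBP1, a sensor of Z-form nucleic acids, read 7.80 and 8.69 in parental and 10.87 and 10.68 in resistant arrays, a rise of 2.53 ± 0.37 (adjusted p = 0.0473; intensity prior 5.7e-04). The Toll-like receptor adaptor genes MYD88 and TICAM1 differed by 1.25 ± 0.20 (adjusted p = 0.0508) and 1.15 ± 0.18 (adjusted p = 0.0523), and both were higher with the intensity prior (6.6e-04 and 6.2e-04). IKBKE was also higher with that prior, with 0.94 ± 0.24 (adjusted p = 0.106, intensity prior 0.0078). STING1, the adaptor for cytosolic DNA, lay lower, with -1.11 ± 0.22 (adjusted p = 0.0721, intensity prior 0.030). So did AIM2, with -0.65 ± 0.20 (adjusted p = 0.143, intensity prior 0.017). Among 6 feedback genes 0 passed; SOCS3, an inhibitor of cytokine receptors, differed by 1.10 ± 0.18 (adjusted p = 0.0558; intensity prior 7.0e-04) and IRF2, which competes with IRF1, by 0.99 ± 0.27 (adjusted p = 0.122; intensity prior 0.015).

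Of 29 measured interferon-stimulated genes outside the member list, 4 rose, 0 fell and 25 did not pass, with a median difference of 0.59; the intensity prior called 14 higher and 4 lower. APOBEC3F and APOBEC3B, cytidine deaminases that mutate viral and sometimes cellular DNA, rose by 1.50 ± 0.18 (0.91 in the other row) and 1.86 ± 0.28 (adjusted p = 0.0350 and 0.0481). LAMP3, a lysosomal membrane protein, rose by 1.83 ± 0.26 (adjusted p = 0.0458), and HELZ2, a helicase coactivator, by 1.22 ± 0.18 (adjusted p = 0.0491). Among 8 measured genes listed for induction by interferon gamma, though not all by it alone, 2 rose, 0 fell and 6 did not pass. The intensity prior called 4 higher and 1 lower. Over all genes 3.26% rose and 2.83% fell, and that prior called 9.93% higher and 11.5% lower. The difference was above 0 for 5 of the 8 and below 0 for 3. These were WARS1 (-0.62, called lower by the intensity prior), CXCL9 (-0.85) and GBP5 (-0.16). ICAM1, an adhesion receptor for leukocytes, rose by 2.31 ± 0.19 (adjusted p = 0.0216), and CXCL10, a T-cell chemokine, by 1.51 ± 0.20 (adjusted p = 0.0397), while CXCL11 differed by 2.06 ± 0.35 (adjusted p = 0.0586). Both genes that rose are also known targets of NF-kB.

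**Figure D4:**
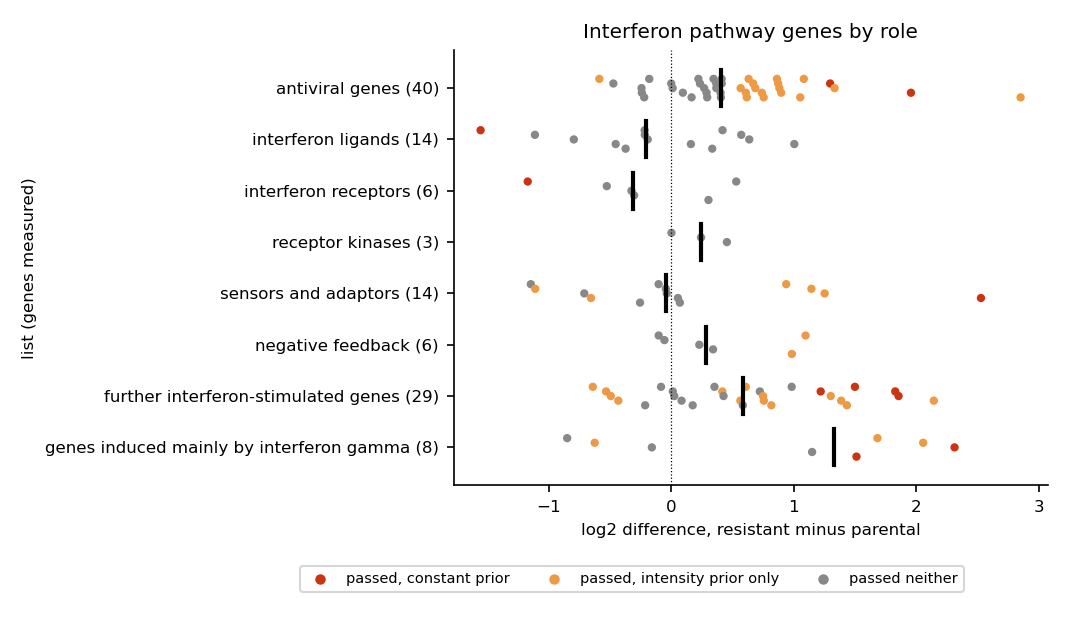
Differences on the log2 scale, resistant minus parental, of the 40 antiviral genes and of 80 other interferon pathway genes by role, each point a gene and each black bar the median of its list. Red points passed limma's test with a constant prior, orange points passed with the intensity prior only and grey points passed neither; ligands and receptors centre at or below 0, with medians of -0.20 and -0.31, and the stimulated genes above it.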

How the data were processed

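CAL-27 total RNA, 2 samples parental and 2 resistant, was measured on 1-colour NimbleGen arrays. Per the labels' protocols, cDNA was primed with oligo-dT and both strands were labelled with Cy3, so a gene and its antisense partner cannot be told apart. The deposited values are normalized intensity values on a linear scale, with 8.79 as the lowest; RMA is named in the submitters' processing notes, while its version, any row filter and the build are not given in the sources used here. Folds of dim genes are nominal, since no detection calls were used. Values were taken to log2 without further normalization. Gene symbols are those of the platform for 17899 rows and, by accession, those of a RefSeq table of GRCh38.p14 (674 rows). The row with the highest mean stood for a gene. R 4.3.3 and limma 3.58.1 (functions lmFit and eBayes) gave the comparison of groups, with Benjamini-Hochberg adjustment over all genes; adjusted p-values in the text come from this fit, and those given for the intensity prior from eBayes with a trend. Scripts were tested on simulated data. Promoters came from RefSeq; protein sequences were not used here. Full values were given for members that passed, the 2 smallest p per role, and the 3 brightest and 3 dimmest. They were also given for the 5 largest differences each way. Other members were given with fewer values. Pathway genes were the 3 smallest p per list and IFNAR1, IFNAR2, JAK1 and TYK2. STING1, AIM2, IKBKE, HELZ2, WARS1, CXCL9 and GBP5, and the arrays of IFIT3 and SAMD9L, were added after their values were seen. Not every gene the rule takes is described. Results for some pathway genes are not reported here. Members, lists and tests were chosen with earlier results of these data known. Same-numbered replicates deviated together only weakly (r = 0.142 over genes), and nothing in the labels pairs them.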

Additional observations from a re-analysis of the deposited data

How the results depend on the processing

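With the constant prior, 2 members were higher and 0 lower, as were 492 and 427 of all genes. The intensity prior gave 18 and 1 members and 1497 and 1737 genes, and its robust form, added after the data had been seen, 19 and 1 members and 1571 and 1846 genes. Leaving out genes with a mean under 7 gave 15 of 38 members higher and 0 lower, and 1304 and 1432 of 9777 genes; the mean is over all 4 arrays, and IFI44L, 1 of the 15, passed this filter only through its resistant arrays. An offset of 32 gave 6 members, and 917 and 851 genes. The replicate number as a block (replicate block), with a single residual degree of freedom, gave 0 members and 0 genes; jointly with the intensity prior it gave 18 and 1 members and 1628 and 1872 genes. All rows tested together gave 0 members, and 14 with the intensity prior, a setting added later. Quantile normalization gave 3 members higher and 0 lower, and 505 and 453 genes. Median centring gave 2 and 0 members, and 458 and 507 genes. The mean of a gene's rows gave 2 and 0 members, and 582 and 505 genes.

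Leaving out 1 array at a time, the constant prior called 0 members and 0 genes each time. The intensity prior then called 13 and 12 members higher when parental replicate 1 or 2 was dropped, and 10 and 12 when it was resistant replicate 1 or 2, with 1 lower in the first case and 0 in the others. In the same order it called 1356, 1306, 800 and 821 genes higher and 1441, 1098, 1099 and 1149 lower. The median difference of the members ranged from 0.37 to 0.55 without single arrays, the highest without parental replicate 2, and it stayed above 0 under every setting for which it was computed, which leaves out the tests of all rows together. Some single differences turned: IFIT2 to -0.36 and RSAD2 to -0.13 without parental replicate 1, and IFIH1 to -0.019 and IFIT2 to -0.052 without resistant replicate 2, under both priors. Their highest values without single arrays were 0.56, 0.87 and 0.83 for IFIT2, RSAD2 and IFIH1. MX2 ranged from 1.74 to 2.18 and GBP1 from 1.26 to 1.34. The cause of these changes was not tested, beyond the loss of residual degrees of freedom with 3 arrays or the block. With 2 arrays per group, and no detection calls, small differences of dim members such as IFIT2 and RSAD2 were not detectable.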

Other observations

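Outside the antiviral list, genes with the response-element core in a promoter window did not stand out. Of 471 such measured genes, members left out, 17 rose (3.61%) and 10 fell (2.12%), and the intensity prior called 50 higher (10.6%) and 45 lower (9.55%). Of 11294 measured genes with a window and no core, 353 rose (3.13%) and 289 fell (2.56%), and the intensity prior called 1116 higher (9.88%) and 1333 lower (11.8%). The median differences were 0.01 and -0.04. The comparison was chosen after the data had been seen and is a description without a test.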
